A study of Mus musculus with 4 samples.

Results

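The 7 genes of the interleukin-23 and interleukin-17 axis, Il23r, Il17a, Il17f, Il17ra, Il12b, Il23a and Il12rb1, were followed through the cells of a spinal cord lesion. They were taken by symbol from the 53647 genes of the count tables, and each symbol had 1 row. In the same order the gene IDs of the files are ENSMUSG00000049093.10, ENSMUSG00000025929.5, ENSMUSG00000041872.10, ENSMUSG00000002897.6, ENSMUSG00000004296.15, ENSMUSG00000025383.3 and ENSMUSG00000000791.10. They lie on chromosomes 6 (Il23r, Il17ra), 1 (Il17a, Il17f), 11 (Il12b), 10 (Il23a) and 8 (Il12rb1). The axis was chosen by the level of Il23r in T cells, which had been seen to be higher in Anti-CD8 libraries. All values of the 7 genes in T cells are therefore given as a description, with no test.

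Interleukin-23 (IL-23) is a cytokine that keeps type 17 lymphocytes going, the T cells that make interleukin-17 (IL-17). Myeloid cells make it from a p40 subunit, encoded by Il12b and shared with interleukin-12 (IL-12), and a p19 subunit, encoded by Il23a. It is read by a receptor of Il23r and Il12rb1 chains, the second of which also serves IL-12. Type 17 cells answer with IL-17A and IL-17F, encoded by the neighbouring genes Il17a and Il17f, and these act through receptors that contain the widely expressed chain Il17ra. In mouse meninges and other barrier tissues, gamma-delta T cells are a known source of IL-17A.

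The tissue was a 2 mm piece of spinal cord holding the lesion, from aged C57BL/6J mice 28 days after spinal cord injury. Mice had been given an antibody to CD8, a surface protein of cytotoxic T cells (Anti-CD8, 2 libraries), or an IgG antibody (IgG, 2 libraries). Both groups were injured, and no uninjured tissue was analysed here. The sources used here do not give the number of mice behind a library or the antibody dose, and p-values measure only the spread between these libraries, which may be partly technical. Cells were dissociated enzymatically, cleared of myelin with beads and read by droplet 3′ sequencing with unique molecular identifiers (UMIs), which count captured RNA molecules.

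The libraries held between 152457679 and 170539226 UMIs, and the cells kept were 7481 and 7816 from Anti-CD8 libraries and 6108 and 6290 from IgG libraries. Median depth per cell was 17284 and 18366 UMIs with Anti-CD8 and 21951 and 20470 UMIs with IgG. Of 29869 distinct barcodes, 87 occurred in more than 1 library, and no pair of libraries shared a barcode within the smaller T-cell cluster described below. IgG replicate 1 stood apart in more than 1 respect. It gave 433 of the 635 cells of a microglial cluster led by the interferon-induced genes Ifit2 and Ifit3. The smaller T-cell cluster had 22 cells there, against 65 to 103 in the other libraries, and no UMI of Il17a. Natural killer cells numbered 16 there, against 45 to 121. T cells were 367 and 220 with Anti-CD8 and 307 and 643 with IgG. Of these, 148 and 83 in Anti-CD8 libraries and 263 and 478 in IgG libraries held a UMI of Cd8a or Cd8b1. T cells formed a large cluster of 1277 cells, of which 94.7% held a UMI of the T-cell receptor subunit Cd3e, and a small one of 260 cells, of which 89.6% did. The small one, led by Scart1, Il23r, Trdc and Il17a, is called the smaller T-cell cluster here and was read apart after the data had been seen. The 7 genes were kept out of the clustering. Dendritic cells and natural killer (NK) cells had fewer than 20 cells in IgG replicate 1 and were not fitted.

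Of the 7 genes, 4 had an entry in RefSeq's promoter table (build GRCm38.p6), namely Il23r, Il17a, Il17f and Il12b; Il17ra, Il23a and Il12rb1 had none. The 250 bases before the start are shown for Il23r and Il17a, whose transcripts shared the smaller T-cell cluster, and for Il17f, the neighbour of Il17a. Il23r is on the minus strand of chr6:67491856-67492105, Il17a on the plus strand of chr1:20730655-20730904 and Il17f on the minus strand of chr1:20784271-20784520.
Il23r: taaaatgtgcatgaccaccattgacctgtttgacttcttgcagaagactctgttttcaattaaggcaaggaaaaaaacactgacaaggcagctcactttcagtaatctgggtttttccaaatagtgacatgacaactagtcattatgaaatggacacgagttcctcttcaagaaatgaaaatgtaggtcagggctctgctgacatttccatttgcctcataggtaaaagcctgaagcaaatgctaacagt
Il17a: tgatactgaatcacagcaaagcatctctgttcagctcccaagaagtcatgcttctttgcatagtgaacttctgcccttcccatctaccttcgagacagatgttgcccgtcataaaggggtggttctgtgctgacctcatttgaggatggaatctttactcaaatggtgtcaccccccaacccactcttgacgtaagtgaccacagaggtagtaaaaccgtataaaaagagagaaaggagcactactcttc
Il17f: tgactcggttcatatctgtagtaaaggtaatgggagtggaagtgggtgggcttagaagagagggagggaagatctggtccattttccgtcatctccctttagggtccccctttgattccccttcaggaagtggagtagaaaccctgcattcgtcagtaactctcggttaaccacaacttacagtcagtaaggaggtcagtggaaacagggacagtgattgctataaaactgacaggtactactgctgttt

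The 7 genes fell into 3 patterns across the cells of the lesion. Il12b and Il23a transcripts lay mostly in myeloid cells, though not in every myeloid class alike. Il23r and Il17a transcripts lay almost wholly in the smaller T-cell cluster, and UMIs of Il17ra were read in every class. In kept cells there were 29236 UMIs of Il12b in 1447 cells, 2514 of Il23a in 945 cells, 866 of Il23r in 204 cells, 169 of Il12rb1 in 152 cells, 863 of Il17a in 69 cells, 70 of Il17f in 55 cells and 44654 of Il17ra in 16341 cells. Levels below are CPM, the UMIs of a gene relative to all UMIs of the class in the same library.

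**Figure D1:**
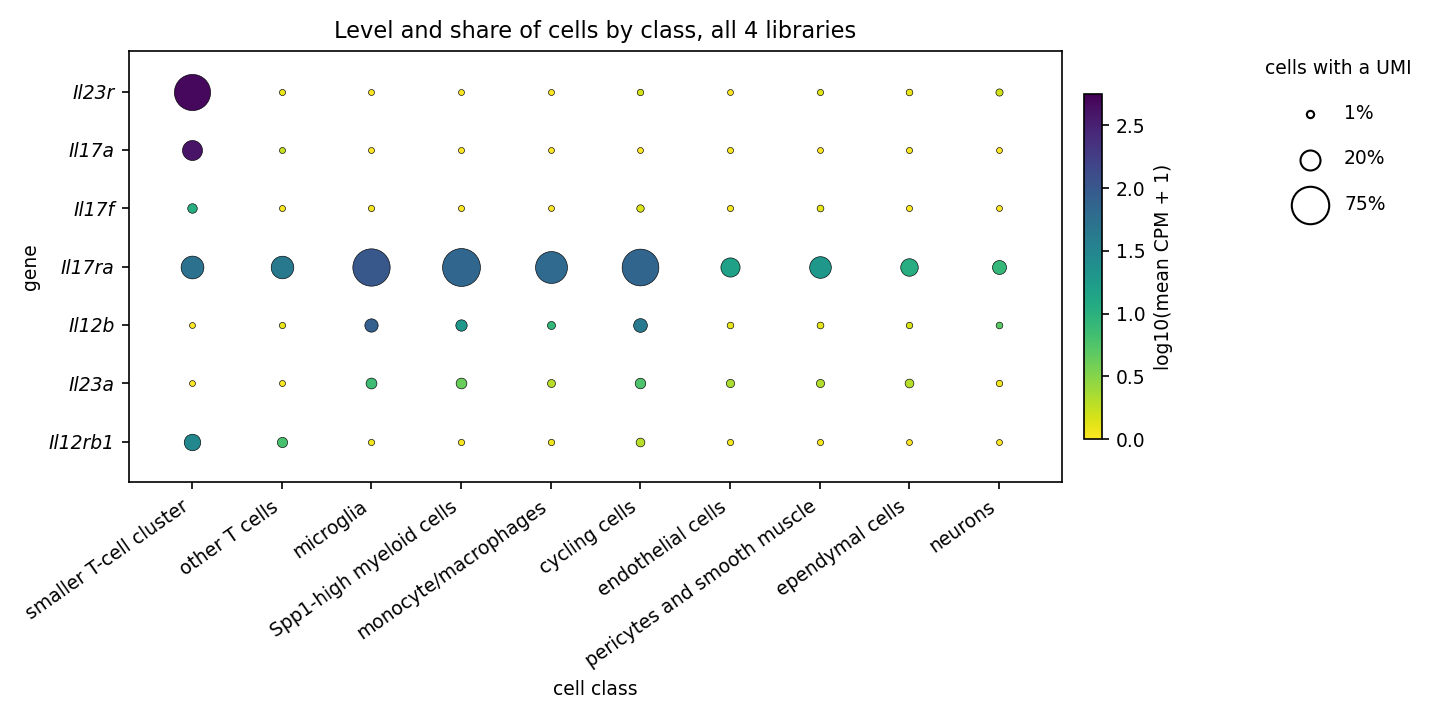
Mean level (colour, log10 of CPM + 1 over 4 libraries) and share of cells with at least 1 UMI (dot area) of the 7 genes (rows) in 10 cell classes (columns). Il23r and Il17a stand out in the smaller T-cell cluster, where 70.0% and 20.0% of cells held a UMI, while Il17ra has UMIs in each of the 10 classes, of which microglia are highest at 101 CPM.

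The p40 gene Il12b was found in few cells, some of which held many UMIs. Microglia held 89.5% of its UMIs, Spp1-high myeloid cells, a class rich in the phagocyte genes Spp1 and Gpnmb, held 7.61%, and monocyte/macrophages 0.814%. Over the 20215 cells of these 3 classes, 6.81% held a UMI, the median positive cell held 5 UMIs and the highest 332. The top 1% of these cells held 64.5% of the Il12b UMIs. In endothelial cells, which are not a known source of p40, 0.476% of cells held a UMI at a median depth of 15197 UMIs, and in T cells outside the smaller T-cell cluster 0.235% did at 7098, against 7.80% of microglia at 19847. Mean levels ran in the order microglia (82.0 ± 32.7 CPM, SD over 4 libraries), cycling cells (41.7 ± 36.9), Spp1-high myeloid cells (18.1 ± 9.35) and monocyte/macrophages (7.72 ± 4.22), and each neighbouring pair overlapped between libraries.

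Among the myeloid clusters, Il12b was most frequent in a microglial cluster of 2163 cells led by Il12b itself, the chemokine genes Ccl6 and Cxcl2 and the itaconate enzyme gene Acod1. There 15.4% and 23.96% of cells held a UMI in Anti-CD8 libraries, against 14.4% and 23.6% in IgG libraries. This cluster held 51.0% of all Il12b UMIs and was deeper than the microglia as a whole, with a median of 28731 UMIs per cell. The microglial clusters led by the interleukin-1 genes Il1rn and Il1b (11.9% of cells) and by Il1a and Cxcl10 (11.7%) followed. The Spp1-high cluster led by Hbb-bs and Clec4e had 10.2%, whereas the other Spp1-high cluster, led by Atp6v0d2 and Mmp12, had 1.89%. A microglial cluster led by homeostatic genes such as Crybb1 had 1.71% and the Mrc1-led macrophage cluster 1.64%.

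In microglia the 2 antibody groups overlapped for Il12b. Its level on the TMM-normalised CPM scale of the fit was 56.1 and 115 CPM with Anti-CD8, against 52.1 and 104 CPM with IgG (log2 fold change 0.13, SE 0.39, adjusted p = 0.943, edgeR). Each group had 1 high and 1 low library, the high one being replicate 2 in both. The sign turned without Anti-CD8 replicate 2 (-0.48) or IgG replicate 1 (-0.28). In Spp1-high myeloid cells it was 8.72 and 29.5 CPM with Anti-CD8 and 13.2 and 20.8 CPM with IgG (0.17, SE 0.41, adjusted p = 0.956), and here too the sign turned without Anti-CD8 replicate 2 (-0.96) or IgG replicate 1 (-0.11) and with the stricter cell filter (-0.06).

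In monocyte/macrophages both Anti-CD8 libraries were below both IgG libraries, with 2.43 and 6.35 CPM, against 12.5 and 9.92 CPM (-1.28, SE 0.34, adjusted p = 0.946). The counts behind this were small, 18 and 63 UMIs in Anti-CD8 libraries against 75 and 82 in IgG libraries, and in IgG replicate 1 a single cell held 74 of the 75. With 1 library left out, a fit takes its spread from the other group's pair alone. The adjusted p was then 0.0363 without Anti-CD8 replicate 2 (-2.19). It was 0.0400 when IgG replicate 2 was left out (-1.46), where that single cell carries the IgG value. It was 3.79e-05 with all libraries and no expression filter. The share of macrophages with a UMI was 1.61% and 1.88% with Anti-CD8 and 0.727% and 1.96% with IgG, so the groups overlapped on that measure. In dendritic cells, the textbook source of IL-12 and IL-23, 8 of 146 cells held 106 UMIs, 65 of them in 1 cell.

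The p19 gene Il23a was sparser and shared the cells of Il12b only in part. Microglia held 77.4% of its UMIs and Spp1-high myeloid cells 16.1%. The mean level was 6.10 ± 1.92 CPM in microglia, 4.89 ± 7.72 in cycling cells and 3.30 ± 0.840 in Spp1-high myeloid cells, which overlapped, and the last of these did not overlap endothelial cells (1.23 ± 0.698 CPM). Endothelial cells held a UMI in 1.85% of cells, pericytes and smooth muscle in 1.77% and ependymal cells in 2.30%. The shares were 4.52% of microglia and 1.58% of monocyte/macrophages. T cells outside the smaller T-cell cluster held a UMI in 1 of 1277 cells. The mean level in monocyte/macrophages was 0.935 ± 0.365 CPM. It was below the means of endothelial cells, pericytes and smooth muscle and ependymal cells, and overlapped them.

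The microglial cluster led by Il12b was also the highest for Il23a, with 59.7% of all its UMIs. A UMI of Il23a was found there in 14.3% and 16.3% of cells in Anti-CD8 libraries and in 13.1% and 19.4% in IgG libraries, and the next cluster, the Hbb-bs and Clec4e one, had 6.10%. Its mean level there, 21.8 ± 5.57 CPM, did not overlap that of any other cluster. Over all myeloid cells 172 held both transcripts, which is 20.0% of the 861 cells with Il23a and 12.5% of the 1376 cells with Il12b. Of myeloid cells without Il23a, 6.22% held Il12b. Within the leading cluster the 2 shares were 32.4% of the 343 cells with Il23a and 17.3% of the cells without it. A deeper cell is more likely to show a UMI of either gene, and the part of depth in the overlap was not tested. Il12a, which encodes the p35 partner that turns p40 into IL-12, had a UMI in 4 of the 20215 myeloid cells, none of them with Il12b.

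The level of Il23a in microglia was 3.86 and 7.85 CPM with Anti-CD8 and 5.15 and 7.58 CPM with IgG (log2 fold change -0.11, SE 0.32, adjusted p = 0.944, edgeR). The sign turned without Anti-CD8 replicate 1 (0.30) or IgG replicate 2 (0.19). In Spp1-high myeloid cells it was 3.03 and 4.42 CPM with Anti-CD8 and 2.63 and 3.10 CPM with IgG (0.38, SE 0.21, adjusted p = 0.746). In both classes the groups overlapped.

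**Figure D2:**
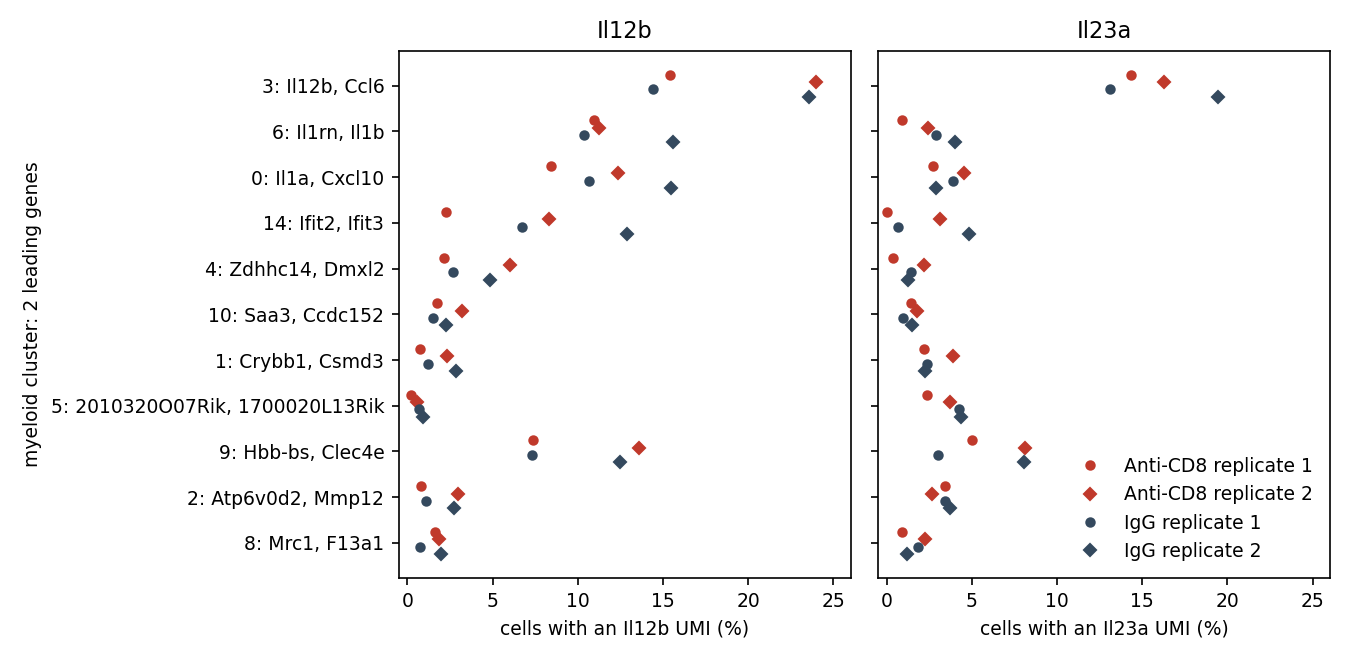
Share of cells with at least 1 UMI of Il12b (left) and Il23a (right) in each of 11 myeloid clusters, named by their number and 2 leading genes, with 1 point per library (red Anti-CD8, dark blue IgG; circles replicate 1, diamonds replicate 2). The cluster led by Il12b and Ccl6 is highest for both genes, and for Il12b its replicate 2 libraries (23.96% and 23.6%) lie above its replicate 1 libraries (15.4% and 14.4%) in both groups.

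The receptor gene Il23r was confined almost wholly to the smaller T-cell cluster, which held 829 of its 866 UMIs (95.7%) in 182 of 260 cells. The level there was 489 ± 48.2 CPM (SD, n = 4 libraries), and the next class, neurons, averaged 0.595 CPM. T cells outside the cluster held a UMI in 2 of 1277 cells, NK cells in 0 of 254 cells, which allows a share of up to 1.18%, and microglia in 4 of 14797 cells. The median cell of the cluster held 6433 UMIs, fewer than that of the other T cells (7098) or of microglia (19847).

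As a share of all T cells, Il23r-positive cells were more frequent with Anti-CD8. They made up 19.1% (95% exact interval 15.2 to 23.5) and 20.9% (15.7 to 26.9) of T cells in Anti-CD8 libraries, against 4.89% (2.76 to 7.93) and 8.24% (6.24 to 10.6) in IgG libraries. Both Anti-CD8 libraries lay above both IgG libraries, at 20.0% ± 1.30 against 6.56% ± 2.37 (SD, n = 2 each). The intervals cover counting error only. The summed level in T cells was 118 and 156 CPM with Anti-CD8 and 37.5 and 42.0 CPM with IgG, a log2 fold change of 1.76 (SE 0.17). This is the difference for which the gene was chosen. Of the axis genes, 4 were fitted in T cells, namely Il23r, Il17a, Il17ra and Il12rb1, in a fit that called 0.81% of 10127 genes. No call of an axis gene is given there.

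With the T cells that carry a CD8 transcript left out of the denominator, the 2 groups overlapped. Among T cells with no UMI of Cd8a or Cd8b1, 31.5% and 31.4% held Il23r with Anti-CD8, against 34.1% and 29.7% with IgG. Within the smaller T-cell cluster the shares were 67.0% and 70.8% with Anti-CD8 and 68.2% and 74.3% with IgG. On the TMM-normalised scale of the fit, the level in the cluster was 485 and 549 CPM with Anti-CD8 and 586 and 442 CPM with IgG (log2 fold change 0.04, SE 0.22). The groups overlapped on all 3 measures. Per 1000 kept cells of a library there were 9.36 and 5.89 Il23r-positive T cells with Anti-CD8 and 2.46 and 8.43 with IgG, which overlapped as well. T cells outside the cluster, whose leading genes were Cd8b1 and Cd8a, numbered 35.3 and 19.8 per 1000 cells with Anti-CD8 and 46.7 and 91.1 with IgG. The smaller T-cell cluster made up 28.1% and 29.5% of T cells with Anti-CD8 and 7.17% and 10.9% with IgG, and 13.8 and 8.32 against 3.60 and 11.1 per 1000 cells. Whether cells of the cluster changed in number in the tissue cannot be read from shares of dissociated cells.

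**Figure D3:**
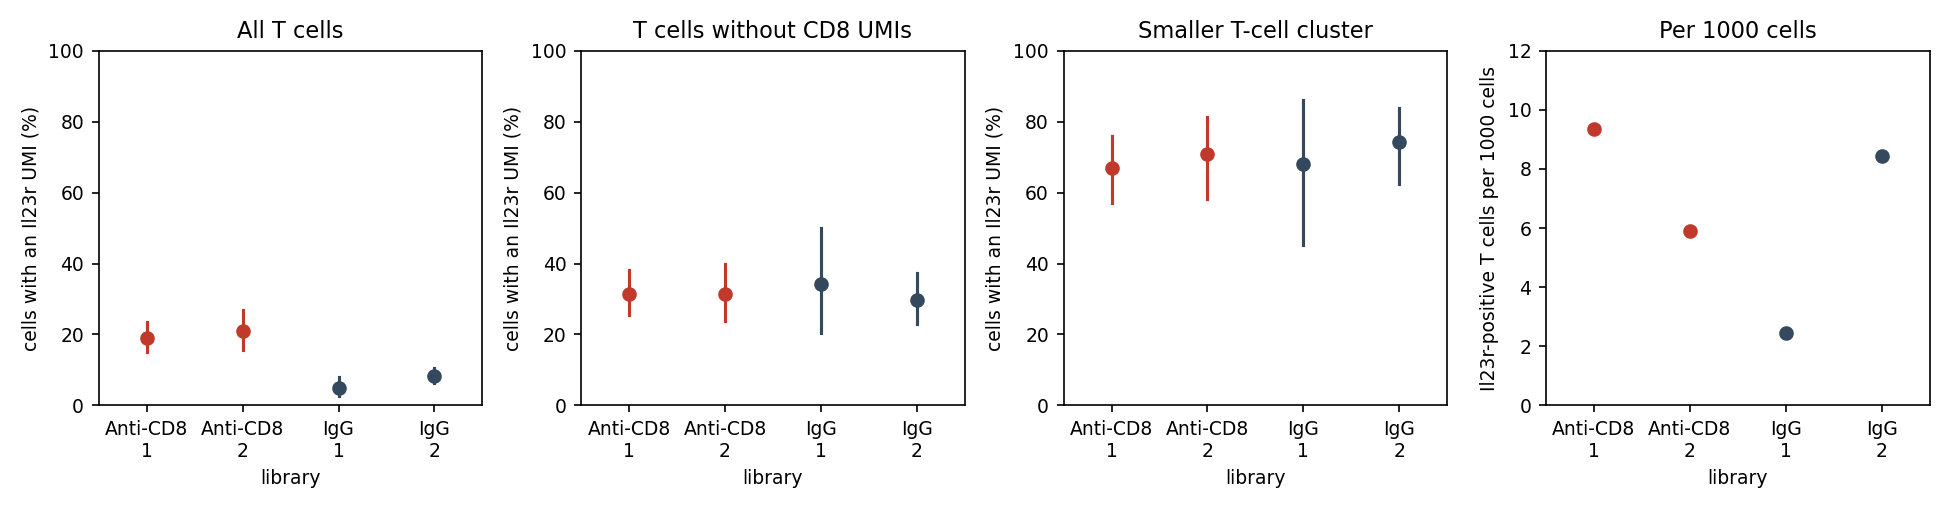
Share of cells with at least 1 Il23r UMI in all T cells, in T cells without a UMI of Cd8a or Cd8b1 and in the smaller T-cell cluster, and Il23r-positive T cells per 1000 kept cells, by library (points; lines are 95% exact binomial intervals, shown for shares). The Anti-CD8 libraries lie apart from the IgG libraries in the first panel (19.1% and 20.9% against 4.89% and 8.24%) and overlap them in the other 3.

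Cells with Il23r held transcripts of more than 1 kind of T-cell receptor. Of the 184 T cells with an Il23r UMI, 182 were in the smaller T-cell cluster, 84 held a UMI of Trdc, the delta chain constant gene, 79 of the delta chain variable gene Trdv4 and 41 of the gamma chain variable gene Trgv6. None of the 184 held Cd4, which was found in 181 of the 1353 T cells without Il23r, and 8 held a CD8 gene. In the cluster, 112 cells held a UMI of Trdc, Trdv4 or Trgv6, and 84 of these held Il23r. Another 100 cells held a UMI of Trac, the alpha chain constant gene, and none of those 3, and 73 of these held Il23r. The last 48 cells held none of the 4 genes and had Il23r in 52.1%. The gamma chain constant gene Trgc1 was found in 108 of the 112 cells, 54 of the 100 and 18 of the 48, so these kinds are defined by the 4 genes named and are not types of T cell. Of NK cells, 20.1% held Trdc, 13.4% Trdv4 and 3.94% Trgc1, and of the other T cells 1.72% held Trgc1.

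Other receptor genes of type 17 lymphocytes were read in the same cells. Il1r1, the interleukin-1 receptor, was found in 73.8% of the smaller T-cell cluster, and Scart1, a scavenger receptor of gamma-delta T cells, in 41.5%. Il17rc, the IL-17 receptor's second chain, was found in 3.46%, and Ccr6, the chemokine receptor that marks many type 17 cells, in 2 of 260 cells. Il22, another type 17 cytokine, had no UMI in T cells, NK cells or microglia. Il12rb1, the chain shared by both receptors, was sparse. It averaged 28.4 ± 14.8 CPM in the smaller T-cell cluster, with a UMI in 13.1% of cells, and 5.38 ± 1.03 CPM in the other T cells, with 3.84%, and these ranges did not overlap. NK cells held it in 3.94% and microglia in 0.210%. Il12rb2, the chain that completes the IL-12 receptor, was spread in another way, with 83.1% of NK cells, 34.2% of the other T cells, 14.6% of microglia and 6.92% of the smaller T-cell cluster. In T cells Il12rb1 was at 9.69 and 9.03 CPM with Anti-CD8 and 9.59 and 6.50 CPM with IgG (log2 fold change 0.28, SE 0.34), with overlapping groups and a value of -0.04 without IgG replicate 2. In the cluster it was at 20.9 and 21.2 CPM with Anti-CD8, against 54.5 and 23.6 CPM with IgG. Both Anti-CD8 libraries were below both IgG libraries there, on 41 UMIs in all.

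The cytokine gene Il17a was found in the same cluster, which held 840 of its 863 UMIs in 52 cells, and it differed widely between libraries of a group. A UMI was found in 25 of 103 and 4 of 65 cells of the cluster with Anti-CD8 (24.3% and 6.15%), against 0 of 22 and 23 of 70 cells with IgG (0%, which allows up to 13.6%, and 32.9%). The UMIs were 357 and 56 with Anti-CD8 and 0 and 427 with IgG, and the highest single cells held 61, 32, 0 and 73 UMIs in the same order. The groups overlapped, and within each group 1 library was high and 1 low. As 1 IgG library was at 0, no fold change is given.

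Il17a was most frequent in cells with a UMI of Trdc, Trdv4 or Trgv6. Of the 112 such cells in the cluster 40.2% held Il17a, against 7 of the 100 cells with Trac and none of those 3 genes and 0 of the other 48, while Il23r was about as frequent in both of the first 2 kinds. Within each library with Il17a the share was also higher in the first kind, at 43.1% against 9.09% in Anti-CD8 replicate 1, 11.1% against 5.88% in Anti-CD8 replicate 2 and 55.3% against 10.5% in IgG replicate 2. In Anti-CD8 replicate 2 both shares rest on 2 cells. Cells with these transcripts made up 49.5% and 27.7% of the cluster with Anti-CD8 and 22.7% and 54.3% with IgG, and the 2 libraries with the larger shares were the 2 with more Il17a. The part of that makeup in the spread of Il17a was not tested. Of the 52 cells with Il17a, 45 held Trdc, 45 Trdv4, 23 Trgv6, 44 Scart1, 44 the kinase gene Blk and 42 Il23r. Il17f was sparse everywhere, with 17 UMIs in 8 cells of the cluster (3.08%), of which 12 UMIs came from Anti-CD8 replicate 1, and 37 UMIs in 31 of 14797 microglia (0.210%). In microglia its level was 0.122 and 0.179 CPM with Anti-CD8 and 0.0252 and 0.138 CPM with IgG (log2 fold change 0.92, SE 0.68, adjusted p = 0.718, edgeR), a value that was 0.13 without IgG replicate 1 and 2.52 without IgG replicate 2.

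**Figure D4:**
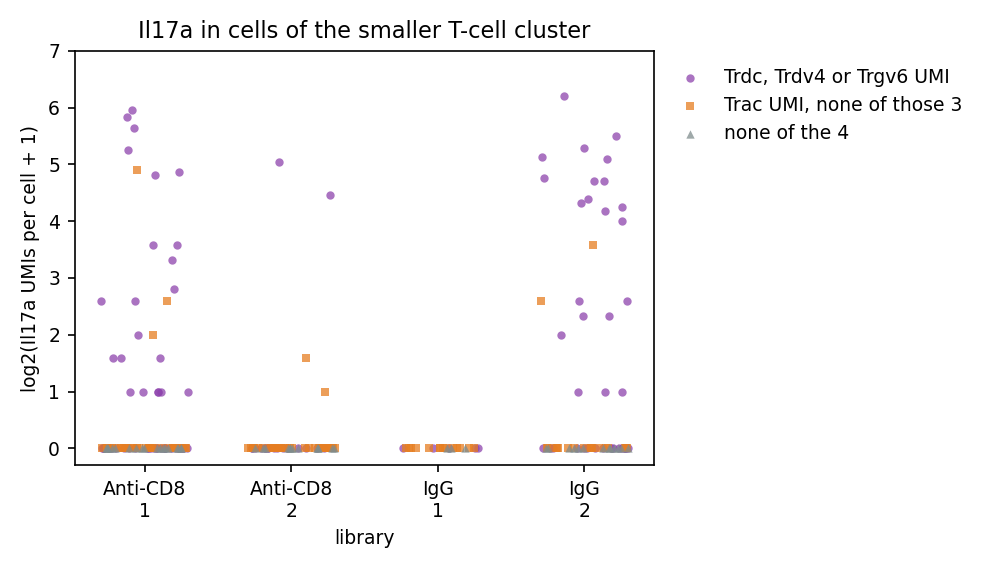
Il17a UMIs per cell (vertical axis, log2 of UMIs + 1) in the 260 cells of the smaller T-cell cluster by library, with 1 symbol per cell coloured by its T-cell receptor transcripts. Positive cells are mostly those with Trdc, Trdv4 or Trgv6 and lie in Anti-CD8 replicate 1 and IgG replicate 2 above all, with 25 and 23 positive cells, against 4 in Anti-CD8 replicate 2 and 0 in IgG replicate 1.

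UMIs of the receptor chain Il17ra were read in every class, and among the 10 classes compared microglia were highest. It averaged 101 ± 7.05 CPM in microglia (SD, n = 4 libraries), above the other 9 in every library. Neutrophils, which were too few to be compared, held 23 UMIs in 11 of 16 cells, at 342 and 127 CPM with Anti-CD8 and 185 and 139 CPM with IgG. These values rest on 5 and 6 neutrophils with Anti-CD8 and on 1 and 4 with IgG. Cycling cells (72.6 ± 10.6 CPM), Spp1-high myeloid cells (67.8 ± 3.29) and monocyte/macrophages (64.0 ± 2.01) followed and overlapped each other. They did not overlap the smaller T-cell cluster (50.9 ± 11.2) or the other T cells (42.3 ± 4.04), which overlapped each other in turn. Pericytes and smooth muscle (18.4 ± 4.58), endothelial cells (14.2 ± 2.09), ependymal cells (9.75 ± 1.87) and neurons (7.30 ± 3.91) were lowest, each overlapping the next. Microglial transcripts were also read in the lowest classes. The 10 microglial marker genes summed to between 212 and 517 CPM in neurons and between 1508 and 1761 CPM in pericytes and smooth muscle, against 5161 to 5793 CPM in microglia, and their part in the Il17ra levels there was not tested. The co-receptor Il17rc was at 14.5 and 15.4 CPM with Anti-CD8 and 17.3 and 15.9 CPM with IgG in endothelial cells, at 0.729 and 1.01 CPM with Anti-CD8 and 0.401 and 0.481 CPM with IgG in neurons, and at 0.0810 and 0.145 CPM with Anti-CD8 and 0.101 and 0.180 CPM with IgG in microglia.

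Between antibodies Il17ra passed the test in no class outside T cells. In microglia it was 104 and 103 CPM with Anti-CD8 and 92.8 and 104 CPM with IgG (log2 fold change 0.08, SE 0.06, adjusted p = 0.740, edgeR). In Spp1-high myeloid cells the value was -0.01 (SE 0.07, adjusted p = 0.982), in monocyte/macrophages 0.02 (SE 0.09, adjusted p = 0.999) and in endothelial cells -0.21 (SE 0.18, adjusted p = 0.999). In T cells it was -0.08 (SE 0.17). Pericytes and smooth muscle had 12.7 and 16.6 CPM with Anti-CD8, below the 22.2 and 22.7 CPM with IgG (-0.63, SE 0.23, adjusted p = 0.996). Neurons had 8.01 and 12.1 CPM with Anti-CD8, above the 2.41 and 6.97 CPM with IgG (1.00, SE 0.47, adjusted p = 0.501), on 22 and 36 UMIs against 6 and 29. Without IgG replicate 2 the neuronal value was 2.05 (adjusted p = 0.0407), set against 1 IgG library of 6 UMIs with the spread of the Anti-CD8 pair alone, and without IgG replicate 1 it was 0.53 (adjusted p = 0.999). Microglial transcripts moved the same way in neurons: the 10 microglial marker genes summed to 412 and 517 CPM with Anti-CD8, against 212 and 240 CPM with IgG, with 9 or 10 of the 10 detected in each library. In pericytes and smooth muscle they summed to 1729 and 1583 CPM with Anti-CD8 and 1508 and 1761 CPM with IgG, which overlapped. Their part in the Il17ra values was not tested.

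None of the axis genes passed edgeR's test in any class outside T cells. That is 0 of 4 genes fitted in microglia, where edgeR called 0.0% of 18360 genes, with 1479 genes at an unadjusted p under 0.05 and 85 called by DESeq2. In Spp1-high myeloid cells it is 0 of 3, where 0.0133% of 15023 genes were called. In monocyte/macrophages it is 0 of 2 (0.0% of 12357 genes called, 626 at an unadjusted p under 0.05, 2 called by DESeq2). In endothelial cells it is 0 of 1 (0.0% of 13919 genes called, 665 at an unadjusted p under 0.05, 6 called by DESeq2). In pericytes and smooth muscle, ependymal cells and neurons it is 0 of 1 each, where 0.00813% of 12298, 0.00701% of 14264 and 1.0% of 13981 genes were called. DESeq2 called none of the axis genes in these 7 classes, and at an unadjusted p under 0.05 there were 2, Il12b in monocyte/macrophages and Il17ra in pericytes and smooth muscle.

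In T cells as a whole, other genes of type 17 lymphocytes were also higher with Anti-CD8. The list was drawn up with earlier results of these libraries known, so its direction is no independent evidence. Of 22 listed genes 19 were fitted, 5 rose and none fell, against 0.642% of all genes fitted that rose, and the median log2 fold change was 1.26, against -0.01 for all genes. The 5 were Ramp1, a co-receptor of the neuropeptide CGRP (178 ± 21.3 CPM with Anti-CD8 and 62.8 ± 9.35 CPM with IgG, adjusted p = 0.00731), Ltb4r1, a leukotriene receptor (52.7 ± 9.66 and 16.6 ± 3.18 CPM, adjusted p = 0.0154), Il18r1, the interleukin-18 receptor (348 ± 15.3 and 148 ± 38.0 CPM, adjusted p = 0.0154), the nuclear receptor gene Rora (799 ± 25.2 and 449 ± 58.7 CPM, adjusted p = 0.0213), and Zbtb16, the factor of innate-like T cells (302 ± 107 and 98.8 ± 38.6 CPM, adjusted p = 0.0458), all SD over n = 2 libraries each, by edgeR. Scart1 was at 144 ± 41.9 and 51.9 ± 37.7 CPM (adjusted p = 0.159) and Trdc at 220 ± 167 and 88.6 ± 74.8 CPM (adjusted p = 0.444), the last with overlapping groups. Fewer of the listed genes passed without 1 library, namely 2 when Anti-CD8 replicate 1 was left out, none when Anti-CD8 replicate 2 was, and 1 when IgG replicate 1 was, whereas 9 passed when IgG replicate 2 was. Zbtb16 did not pass with DESeq2 (adjusted p = 0.120).

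Inside the smaller T-cell cluster the same list had values on both sides of 0. Of 20 fitted genes edgeR called 0, 2 were at an unadjusted p under 0.05 and DESeq2 called 0, with a median of -0.10 and a range of -0.80 to 0.67, against a median of -0.00156 for all genes. No gene of the 6036 fitted was called in this cluster (0.0%), 236 being at an unadjusted p under 0.05 and 0 called by DESeq2. Ramp1 was at -0.21 (SE 0.20), Ltb4r1 at -0.02 (SE 0.24), Il18r1 at -0.01 (SE 0.19), Zbtb16 at -0.01 (SE 0.21) and Rora at 0.06 (SE 0.20), while 6 of the 20 values were above 0. Blk was lowest at -0.80 (SE 0.35), followed by Sox13 at -0.75 (SE 0.55), Aqp3 at -0.65 (SE 0.41) and Kcnk1 at -0.64 (SE 0.26), none of them called. The share of T cells that belonged to the cluster moved with these results, 28.1% and 29.5% with Anti-CD8 against 7.17% and 10.9% with IgG. In the other T cells 8 of the 22 genes were fitted and 1 rose and none fell, where 0.0934% of 9631 genes rose and 0.0831% fell. That was Il18r1, with 152 and 165 CPM with Anti-CD8 and 72.3 and 93.5 CPM with IgG (log2 fold change 0.91, SE 0.15, adjusted p = 0.0466). Ramp1 there was at 1.62 (SE 0.29, adjusted p = 0.0623). The 8 genes had a median of 0.74 in these cells, with a range of -0.47 to 1.62, and 7 values were above 0. At an unadjusted p under 0.05 by edgeR there were 7 of the 8, against 8.26% of all genes fitted. Among these, Batf was lower with Anti-CD8 (-0.47). The part of the smaller T-cell cluster's share in the values of T cells as a whole was not tested. Il12rb2 was at 417 and 209 CPM with Anti-CD8 and 201 and 122 CPM with IgG in these cells (0.99, SE 0.28, adjusted p = 0.275).

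Listed genes downstream of IL-17 passed the test in none of microglia, Spp1-high myeloid cells, monocyte/macrophages and endothelial cells. Of 20 listed IL-17 target genes, such as the neutrophil chemokines Cxcl1 and Cxcl2 and the acute-phase genes Lcn2 and Saa3, 12 were fitted in microglia, 10 in Spp1-high myeloid cells, 8 in monocyte/macrophages and 7 in endothelial cells, and edgeR called 0 in each. At an unadjusted p under 0.05 there were 3, 5, 1 and 2 of them, against 8.06%, 7.37%, 5.07% and 4.78% of all genes fitted. DESeq2 called 0, 0, 0 and 1 of them, against 85, 19, 2 and 6 of all genes. The medians were -0.10, 0.06, -0.24 and -0.19. Of 17 genes of IL-17 receptor signalling, 16, 14, 14 and 16 were fitted in these 4 classes and edgeR called 0, with medians between -0.05 and 0.03 (4, 2, 0 and 0 at an unadjusted p under 0.05, 0 by DESeq2). Of 8 cytokines that favour type 17 cells, such as Il1b, Il6 and Tgfb1, edgeR and DESeq2 called 0 in each class, with 0, 1, 0 and 1 at an unadjusted p under 0.05. Of 9 partners of IL-23 and IL-12, such as Jak2, Tyk2 and Stat4, which carry their signal, 8, 8, 7 and 6 were fitted, edgeR and DESeq2 called 0, and 0, 1, 2 and 0 were at an unadjusted p under 0.05. None of 4 other IL-17 family ligands, such as Il25, was fitted in these classes. Outside these classes and T cells, 4 listed genes passed. In pericytes and smooth muscle the prostaglandin synthase gene Ptgs2 fell, with 106 and 104 CPM with Anti-CD8, against 226 and 206 CPM with IgG (log2 fold change -1.05, SE 0.12, adjusted p = 0.0249, edgeR). This was the only gene called in that class. In neurons 3 rose, where 0.708% of all genes rose: Cxcl2 (29.1 and 38.3 CPM with Anti-CD8 and 2.81 and 11.3 CPM with IgG, adjusted p = 0.0416), Nfkbiz, a transcriptional co-regulator of IL-17 targets (95.8 and 118 against 57.7 and 44.2 CPM, adjusted p = 0.0302), and the cytokine gene Il1b (102 and 147 against 58.6 and 55.5 CPM, adjusted p = 0.0297). These too stand beside the microglial marker sums in neurons given above, whose part was not tested. A value that missed the threshold with 2 libraries a group does not show that the groups were alike.

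Genes with a pattern like that of a member were ranked by Pearson's r of log2(CPM + 1) over 36 sums, 9 classes in 4 libraries, which share library and depth. Each sum covers a whole class, so a high r does not show that genes were read in the same cells. Closest to Il23r were Krt83 (r = 0.988), Trgc1, a gamma chain constant gene (0.984), and Olfr1259 (0.983), with Scart1 in 10th place (0.972). Closest to Il17a was Trgv6 (0.965), with Foxp3 in 4th place (0.929). Closest to Il12rb1 was Gpr174 (0.985), to Il17ra Id2 (0.976), to Il12b F9 (0.945), to Il17f Fcrl6 (0.861) and to Il23a Chst11 (0.738). Within T and NK cells thinned to 2000 UMIs no member reached 20 positive cells in every library. With 10 required, a limit chosen after seeing the data, the genes whose share of positive cells differed most between cells with and without Il23r in every library were Tmem176b (at least 64.4 percentage points), Tmem176a (59.9) and Igf1r (58.6). As 182 of the 184 T cells with Il23r were in the smaller T-cell cluster, this ranking mainly returns genes that set the cluster apart. Tmem176a and Tmem176b had been seen before to rise in T cells and were kept off the lists for that reason.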

How the data were processed

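Droplet 3′ single-cell libraries were deposited as matrices of raw UMI counts per gene and barcode. Reads were counted with Cell Ranger 7.1.0 on GRCm39, per the submitters' processing notes. From the deposited counts, barcodes under 300 genes or over 20% mitochondrial UMIs were dropped, as were doublets by Scrublet score. Clusters were made in scanpy 1.11.5 (leidenalg 0.10.2) from 3000 variable genes, 30 components and resolution 1.0, without the 7 genes, CD8, T-cell receptor, immunoglobulin, mitochondrial and sex-linked genes. Class names come from marker lists and may differ from those of the study. T cells formed 2 clusters, and reading the smaller one apart was chosen after seeing the data.

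UMIs were summed per library and class (at least 20 cells in each library) and fitted with edgeR 4.0.16 in R 4.3.3 (quasi-likelihood test, TMM, expression filter, Benjamini-Hochberg adjustment over all genes of the class, threshold 0.05). DESeq2 1.42.0 was the alternative. CPM of a fit are TMM-normalised. The SE of a log2 fold change was worked back from edgeR's F statistic, as its absolute value over the square root of F. It is unreliable where the fold change is near 0. For the axis genes in T cells it is not to be read as a test. Intervals on shares are 95% exact binomial, and limits for a count of 0 use 3 counts. Both cover counting error only. The members and lists were chosen with earlier results of these data known, and 1 listed gene is not reported here. Named were all 7 genes, listed genes past the threshold (at most 8 per class) and Il22, Il17rc, Ccr6, Scart1, Trdc and Il12rb2; values of other genes given were chosen after being seen. On simulated counts with known changes, edgeR recovered 55.6% of genes changed by 1 and 98% of genes changed by 2 on the log2 scale in T cells (9895 genes, 14 false calls), and 78.8% and 98% in microglia (18066 genes, 7 false calls). These counts were drawn at the dispersion trend, with no spread of single genes around it. Recovery of genes that vary more between libraries, as Il17a did, was not simulated.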

Additional observations from a re-analysis of the deposited data

Results flagged for a closer look

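Il17ra, the receptor chain for IL-17, had values of opposite sign in neurons and in pericytes and smooth muscle. Every Anti-CD8 library was above every IgG library in neurons (log2 fold change 1.00) and every Anti-CD8 library was below every IgG library in pericytes and smooth muscle (-0.63). The difference between these classes was not tested, and neither value passed edgeR's test (adjusted p = 0.501 and 0.996). The neuronal sums rest on 93 UMIs and those of pericytes and smooth muscle on 199 UMIs over all 4 libraries. The neuronal value ran from 0.53 without IgG replicate 1 to 2.05 without IgG replicate 2. The 10 microglial marker genes also summed to more in neurons with Anti-CD8, at 412 and 517 CPM against 212 and 240 CPM with IgG, and their part was not tested.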

How the results depend on the processing

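With 2 libraries a group, counts of called genes depended on the setting, and the cause was not tested. Without 1 library, the lone library of its group is assumed to vary like the other group. In T cells (82 genes) they were 593 with no expression filter, 289 with the replicate block, 19 to 110 without 1 library, 0 in the smaller T-cell cluster alone and 17 in the other T cells alone. In microglia (0) they were 85 with DESeq2, 561 with no filter, 4 with the replicate block and 0 to 174 without 1 library. In Spp1-high myeloid cells (2) they were 19 with DESeq2, 0 with no filter, 19 with the replicate block, 0 to 129 without 1 library, 0 with no doublet removal and 10 with the stricter cell filter. In monocyte/macrophages (0) they were 2 with DESeq2, 91 with no filter, 3 with the replicate block, 3 to 98 without 1 library and 1 with no doublet removal. In endothelial cells (0) they were 6 with DESeq2, 139 with no filter, 25 with the replicate block and 0 to 104 without 1 library. The difference in the Il23r share of T cells, 13.4 percentage points, was 9.38 and 6.63 with cells thinned to 2000 and 1000 UMIs, 11.2 with at least 2 UMIs required, -0.45 among T cells without a CD8 UMI, -2.35 in the smaller T-cell cluster alone and 11.7 to 15.1 without 1 library. In that cluster alone Ramp1 (-0.213), Ltb4r1 (-0.0215), Il18r1 (-0.00545) and Zbtb16 (-0.0115) had values below 0, none of them called. Their SEs were 0.198, 0.236, 0.193 and 0.210, so a change of sign is not shown. The labels do not say whether replicate numbers mark a shared batch. Over all genes fitted, deviations of same-numbered libraries correlated between -0.0177 and 0.0491. Such a value does not speak for single genes, and Il12b and Il23a in microglia were higher in replicate 2 of both groups. A shared batch was not tested, and with 2 numbers the block has no basis in the labels. With it 11 of the listed type 17 genes passed in T cells. Settings for dendritic cells were not run, as 1 library held 18 of these cells.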
